A study of Arabidopsis thaliana with 8 samples.

Results

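*BRI1* encodes the leucine-rich repeat receptor kinase that perceives brassinosteroids (BRs) at the cell surface, and *BRL1*, *BRL2* and *BRL3* encode its closest relatives in *Arabidopsis*. These 4 genes were taken as the BRI1 receptor family. Each was read from 1 probe set, out of 22746 probe sets tested. Their locus identifiers are At4g39400 for *BRI1*, At1g55610 for *BRL1*, At2g01950 for *BRL2* and At3g13380 for *BRL3*. The genes lie on chromosomes 4, 1, 2 and 3 in that order. All 4 passed into the test, because no filter on low intensities was applied.

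BR binds the extracellular part of BRI1 together with a co-receptor, and the kinase domain then starts a relay that inactivates the GSK3-like kinase BIN2 and lets the transcription factors BZR1 and BES1 act on their targets. BRI1 is found in growing cells throughout the seedling. BRL1 and BRL3 also bind brassinolide (BL), the most active BR, and are known from vascular tissue. BRL2, also called VH1, is a vascular protein that is not known to bind BL. Raised BR signaling is known to lower the expression of BR synthesis genes, a negative feedback.

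RNA came from whole light-grown seedlings, in 4 groups with 2 Affymetrix ATH1 arrays each: *yucca* seedlings kept for 2.5 h in liquid medium containing BL at 1 μM (*yucca* BR), *yucca* seedlings in medium alone (*yucca* mock), wild type with BL (WT BR) and wild type in medium alone (WT mock). WT was Columbia (Col-0), and *yucca* is a mutant that overproduces auxin. The sample labels give an age of 10 d, and the methods of the paper an age that is 1 d younger. The paper counts the 2 arrays of a group as biological replicates. Each p-value rests on the spread between 2 arrays per group, pooled over the 4 groups and moderated across all probe sets.

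Levels are deposited rma intensities in arbitrary units, with array medians of 44.7 to 46.4 in *yucca* and 86.8 to 90.1 in WT. The genotypes were normalized apart: 602 intensities were equal to every digit between arrays of 1 genotype and 0 between genotypes. Deposited levels were therefore compared within a genotype only. For *yucca* against WT, the values were quantile-normalized over all 8 arrays. This sets the distributions equal but cannot remove offsets of single probe sets left by the separate normalization. A difference between genotypes can therefore not be told apart from one between the separate normalizations. The labels could not be checked on the *YUCCA* transcript, which was not analysed here. Of the marker genes listed for each tissue, 3 of 6 could be read for root, 1 of 12 for vascular tissue and 0 of 4 for photosynthetic tissue. The root gene *PYK10* and the vascular sucrose transporter gene *SWEET11* ranked at percentile 97.2 or higher on every array, while tissue makeup beyond these markers could not be checked. In RNA of whole seedlings, fewer cells of a type and less RNA per cell cannot be told apart.

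*BRI1* was among the brighter transcripts of these seedlings and fell after BR treatment in both genotypes. In *yucca*, its intensity was 231 and 218 on the BR arrays, against 542 and 501 on the mock arrays. In WT, it was 632 and 663 on the BR arrays, against 1282 and 1370 on the mock arrays. In both genotypes each BR array lay below each mock array, and the groups did not overlap. The mean was 225 ± 9.46 in *yucca* BR and 522 ± 28.7 in *yucca* mock (SD, n = 2 each). The log2 fold change was −1.22, with a standard error of 0.094, a 95% interval of −1.43 to −1.0 and an adjusted p of 0.000145 from limma. The mean was 648 ± 21.9 in WT BR and 1326 ± 62.3 in WT mock (SD, n = 2 each). There the log2 fold change was −1.03, with a 95% interval of −1.24 to −0.82 and an adjusted p of 0.000778 from limma. A transcript counted as called when its adjusted p was below 0.10 and B, the log odds that it changed, was positive. *BRI1* had a B of 7.18 in *yucca* and 5.79 in WT. By these criteria 1 of the 4 family members fell and 0 rose in each genotype, against 1.66% of all probe sets lowered and 1.76% raised in *yucca*, and 0.945% lowered and 1.21% raised in WT. *BRI1* had the 96th lowest log2 fold change of the 22746 probe sets in *yucca* and the 70th lowest in WT. The probe set of *BRI1* has its gene name from the study's lists of genes lowered by BL on these same arrays and raised by auxin on other arrays. Its fall is thus not independent of that choice. Its calls in both genotypes held under every alternative tried.

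**Figure D1:**
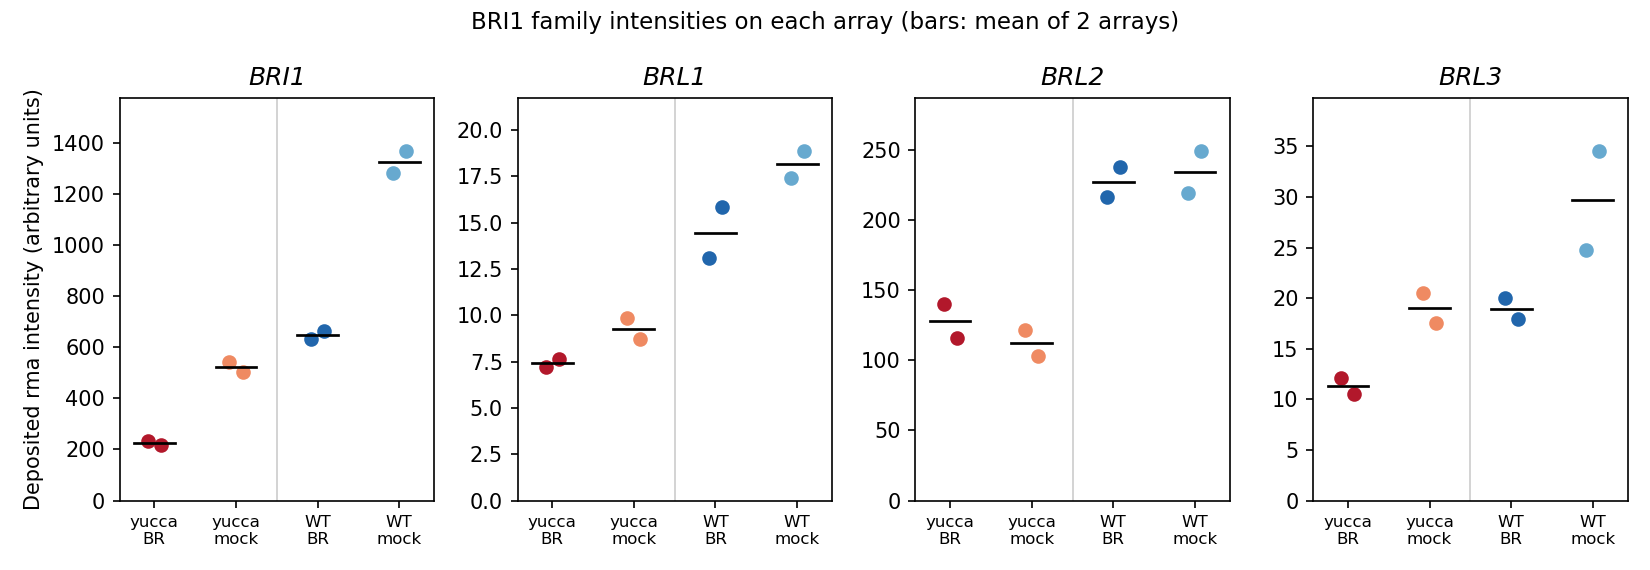
Deposited rma intensity (arbitrary units, linear axis from 0) of each family member on each of 8 arrays, with 1 point per array and a bar at the mean of the 2 arrays of a group. Intensities can be compared between BR and mock within a genotype, not between the 2 sides of the grey line, where normalization was separate. *BRI1* separated fully by treatment in both genotypes, whereas the *BRL2* groups overlapped.

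*BRL3*, whose product binds BL like BRI1, had lower intensities after BR treatment in both genotypes without meeting both criteria in either. It was at 12.2 and 10.5 on the *yucca* BR arrays, against 20.5 and 17.5 on the *yucca* mock arrays. It was at 19.98 and 18.0 on the WT BR arrays, against 24.8 and 34.6 on the WT mock arrays. The groups did not overlap in either genotype, but the lower WT mock array was closer to either WT BR array than to the other WT mock array. All 8 values lay between percentiles 19.6 and 36.4 of their array, so *BRL3* was a dim probe set. In *yucca* the log2 fold change was −0.74 (standard error 0.162, 95% interval −1.11 to −0.38), with an adjusted p of 0.0276 and a B of −1.07 from limma. In WT it was −0.63 (standard error 0.162, 95% interval −1.0 to −0.26), with an adjusted p of 0.0914 and a B of −1.99. Both thus passed the adjusted p alone, as did 4.64% of probe sets lowered in *yucca* and 2.01% in WT, and both missed the B criterion. The WT value was −0.87 and met both criteria without WT mock replicate 1, and was −0.39 (adjusted p = 0.525) without WT mock replicate 2. The *yucca* value kept its size and met both criteria without WT mock replicate 1 or 2, which enter only its estimate of the spread (B = 0.239). It missed the adjusted p too without *yucca* mock replicate 1 (−0.63, adjusted p = 0.112) or *yucca* BR replicate 2 (−0.64, adjusted p = 0.148). The WT value also missed the adjusted p without WT BR replicate 1 (−0.70, adjusted p = 0.285) or WT BR replicate 2 (−0.55, adjusted p = 0.467), with the replicate block (adjusted p = 0.123) and after quantile normalization over all 8 arrays (−0.58, adjusted p = 0.147). After 16 was added to each intensity, the log2 fold changes were −0.36 in *yucca* (adjusted p = 0.108 from limma) and −0.38 in WT (adjusted p = 0.129).

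*BRL1*, the other member whose product binds BL, was near the bottom of the intensity range. It was at 7.19 and 7.66 on the *yucca* BR arrays, against 9.83 and 8.72 on the *yucca* mock arrays. It was at 13.1 and 15.8 on the WT BR arrays, against 17.4 and 18.9 on the WT mock arrays. The BR arrays were again below the mock arrays of their genotype, by small steps. These values lay between percentiles 8.18 and 24.2 of their arrays. The log2 fold change was −0.32 in *yucca* (95% interval −0.59 to −0.05, adjusted p = 0.179 from limma) and −0.33 in WT (95% interval −0.60 to −0.07, adjusted p = 0.261), and neither passed the test. The size depended on the low end of the scale: with 16 added to each intensity it was −0.11 in *yucca* and −0.17 in WT. Leaving out 1 array gave −0.40 to −0.23 in *yucca* and −0.47 to −0.20 in WT.

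*BRL2*, the vascular member not known to bind BL, lay between percentiles 67.4 and 73.6 of its arrays and showed no change that passed the test. It was at 140 and 116 on the *yucca* BR arrays, against 122 and 103 on the *yucca* mock arrays. It was at 216 and 238 on the WT BR arrays, against 219 and 249 on the WT mock arrays. BR and mock arrays overlapped in both genotypes. The log2 fold change was 0.19 in *yucca* (95% interval −0.11 to 0.48, adjusted p = 0.531 from limma) and −0.044 in WT (95% interval −0.34 to 0.25, adjusted p = 0.983). Leaving out 1 array gave 0.049 to 0.32 in *yucca*. A fall as large as that of *BRI1* lay outside both intervals. Thus 3 of 4 members had all BR arrays below all mock arrays in each genotype, a state shared by 21.6% of all probe sets in *yucca* and 25.1% in WT.

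**Figure D2:**
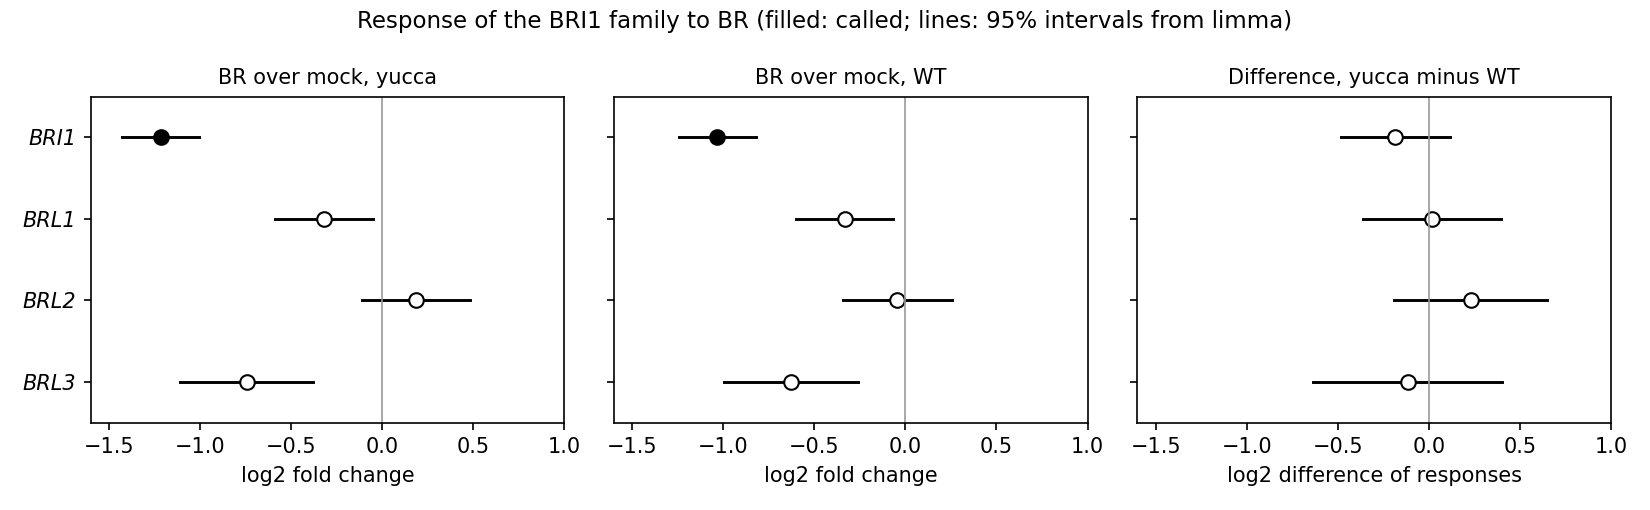
Log2 fold change of BR over mock treatment for the 4 family members in *yucca* (left) and in WT (middle), and the difference of both responses, *yucca* minus WT (right), each from limma over 8 arrays with its 95% interval. Filled points passed both criteria. *BRI1* passed in both genotypes, and all 4 intervals of the difference include 0.

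The study asked whether auxin overproduction in *yucca* changes the response to BR. The paper reports that most genes responsive to BR in WT did not respond in *yucca*. That result rests on BR against mock treatment in each genotype, a measure unlike the test of the difference used here. For no family member did the response pass the test of the difference between the genotypes, in which 0.0264% of all probe sets were called in either direction. For *BRI1* the log2 response in *yucca* minus that in WT was −0.18 (standard error 0.133, 95% interval −0.48 to 0.12, adjusted p = 0.81 from limma). A response of *BRI1* in *yucca* weaker than that in WT by more than 0.12 on the log2 scale was outside this interval. The difference was −0.12 for *BRL3* (95% interval −0.63 to 0.40), 0.016 for *BRL1* (95% interval −0.36 to 0.39) and 0.23 for *BRL2* (95% interval −0.19 to 0.65), with adjusted p of 0.942, 0.992 and 0.837 in that order. For *BRL1*, *BRL2* and *BRL3* these intervals are wide, and they leave room for differences of 0.36 or more on the log2 scale.

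**Figure D3:**
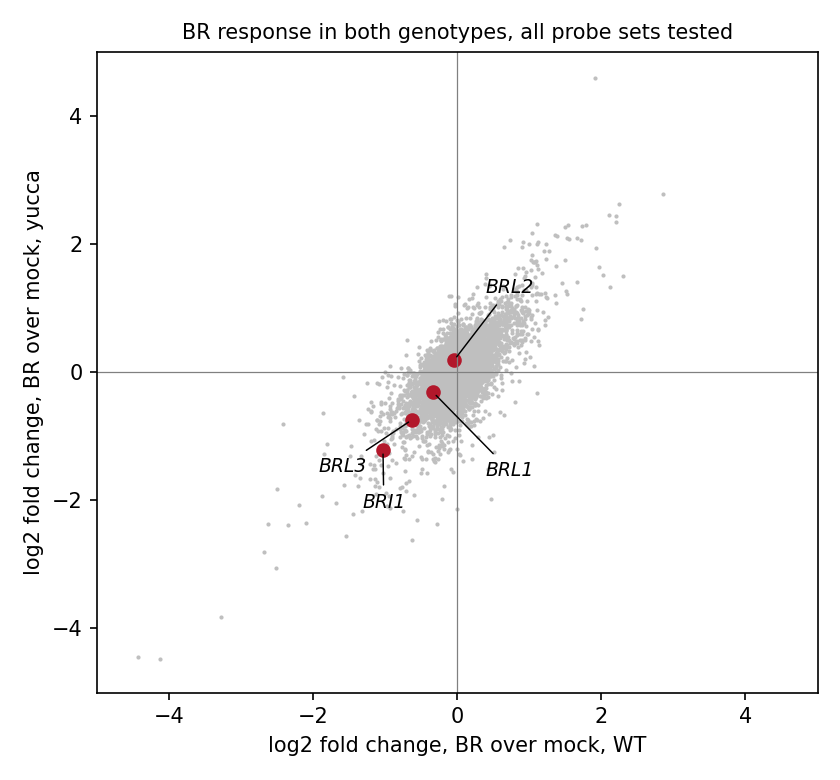
Log2 fold change of BR over mock treatment in WT (horizontal) and in *yucca* (vertical) for 22746 probe sets (grey) and the 4 family members (red). The 2 axes share no arrays. *BRI1* lies at −1.03 and −1.22, outside the dense centre of the plot, and *BRL2* lies inside it at −0.044 and 0.19.

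The responses of both genotypes were also averaged in the same fit, a comparison added after the data were seen. On average over the genotypes, the log2 fold change of *BRI1* was −1.12 (95% interval −1.27 to −0.97, adjusted p = 1.81e-05 from limma). That of *BRL3* was −0.69 (standard error 0.115, 95% interval −0.95 to −0.43, adjusted p = 0.0056) and it was called, with a B of 0.717. The averaged value of *BRL1* was −0.33 (standard error 0.0837, 95% interval −0.52 to −0.14), which passed the adjusted p (0.0451) but not the B criterion (−2.32). *BRL2* was at 0.07 (95% interval −0.14 to 0.28). By this average 2.13% of all probe sets were called lower, and 5.77% were lower by the adjusted p alone. The call of *BRL3* ended with 16 added to each intensity (−0.37), and when *yucca* BR replicate 2 (−0.63), *yucca* mock replicate 1 (−0.63), the first (−0.72) or the second (−0.65) WT BR array or WT mock replicate 2 (−0.57) was left out. It ended with a replicate block too (B = −0.00789), so this call lay near the threshold.

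Between the genotypes, *BRI1* was lower in *yucca* than in WT after BR treatment, and its difference after mock treatment was not called. The paper reports that short auxin treatment, in a separate experiment, induced *BRI1* and *BRL3* and repressed *BRL2*. Those arrays were not analysed here. On quantile-normalized values *BRI1* was at 318 and 313 in *yucca* BR, against 457 and 469 in WT BR. In mock-treated seedlings it was at 742 and 705 in *yucca*, against 928 and 993 in WT. At either treatment both *yucca* arrays lay below both WT arrays, as they did for *BRL1* and for 38.8% of all probe sets after BR and 37.8% after mock treatment. After BR treatment the log2 difference of *yucca* to WT was −0.55 (standard error 0.0869, 95% interval −0.75 to −0.36, adjusted p = 0.00101 from limma, B = 1.03), which was called. That call was lost when the other 4 arrays stayed out of the fit (B = −0.0312). It was also lost when any 1 of the 4 BR arrays, *yucca* or WT, was left out, with values between −0.57 and −0.54. After mock treatment the difference was −0.41 (standard error 0.0869, 95% interval −0.60 to −0.21, adjusted p = 0.00481), and a B of −1.36 kept it from being called; 27.7% of all probe sets were lower by the adjusted p alone. Calls between the genotypes, which were also normalized apart, were frequent on these arrays. Of all probe sets, 8.6% were called lower in *yucca* after BR treatment and 8.81% after mock treatment. *BRI1* had the 2572nd and the 4021st lowest value in that order. The median difference over all probe sets was −0.0114 after mock treatment on this scale, 0.113 with array medians set equal and −0.869 on deposited values. The difference of *BRI1* after mock treatment was −0.36 with array medians set equal and −1.35 on deposited values, and that after BR treatment −0.57 and −1.53 in the same order.

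The other members did not pass the test between genotypes. With array medians set equal, *BRL1* changed direction at both treatments and *BRL3* after BR treatment. *BRL2* after BR and *BRL3* after mock treatment changed direction only on deposited values among the scalings, which are not comparable between genotypes. *BRL1* was at 9.43 and 9.67 in *yucca* BR, against 9.95 and 12.7 in WT BR, and at 13.0 and 10.8 in *yucca* mock, against 13.6 and 15.1 in WT mock. Its log2 difference was −0.24 after BR and −0.27 after mock treatment, and turned to 0.0051 and 0.0099 with array medians set equal. Without 1 array it lay between −0.41 and −0.059 after BR and between −0.41 and −0.14 after mock treatment. *BRL2* was at 196 and 166 in *yucca* BR, against 158 and 167 in WT BR, and at 166 and 148 in *yucca* mock, against 157 and 176 in WT mock. The 2 genotypes overlapped at both treatments, with log2 differences of 0.15 after BR (95% interval −0.11 to 0.41) and −0.09 after mock treatment (95% interval −0.35 to 0.17). Without 1 array these lay between 0.036 and 0.27 after BR and between −0.17 and −0.0053 after mock treatment. *BRL3* was at 15.7 and 13.0 in *yucca* BR, against 15.4 and 14.5 in WT BR, and at 27.8 and 22.4 in *yucca* mock, against 19.0 and 26.2 in WT mock. Its log2 differences of −0.07 after BR (95% interval −0.45 to 0.32) and 0.16 after mock treatment (95% interval −0.22 to 0.54) had intervals that include 0. The vascular gene *SWEET11*, the only vascular marker read here, lay at 1630 to 1642 in *yucca* BR, 1710 to 1808 in *yucca* mock, 1865 to 1882 in WT BR and 1856 to 1932 in WT mock, with no call in any comparison. Summed root markers lay at 4946 to 5100 in *yucca* BR, 4655 to 4715 in *yucca* mock, 4343 to 4662 in WT BR and 4610 to 5211 in WT mock. *PYK10* makes up most of that sum. The other 2 of the 3 root markers, the root hair genes *COBL9* and *EXPA7*, were at lower levels on every *yucca* array than on every WT array. Within a single treatment, both *yucca* arrays lay below both WT arrays for 37.8% of all probe sets after mock treatment and 38.8% after BR treatment. No share was computed for separation over both treatments at once. *COBL9* has its name here only through the paper's list of genes lowered by auxin treatment. Its lower level in *yucca* is thus not independent of that choice. *COBL9* had log2 differences of −0.66 after BR (adjusted p = 0.00264 from limma, B = −0.383) and −0.81 after mock treatment (adjusted p = 0.000889), of which the mock one was called. *EXPA7* had −0.77 after BR (adjusted p = 0.0404) and −0.82 after mock treatment (adjusted p = 0.0315), neither called, and *PYK10* had 0.19 and −0.04. Neither *COBL9* nor *EXPA7* was called for BR in either genotype. The part of tissue makeup in the *BRI1* difference was not tested.

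**Figure D4:**
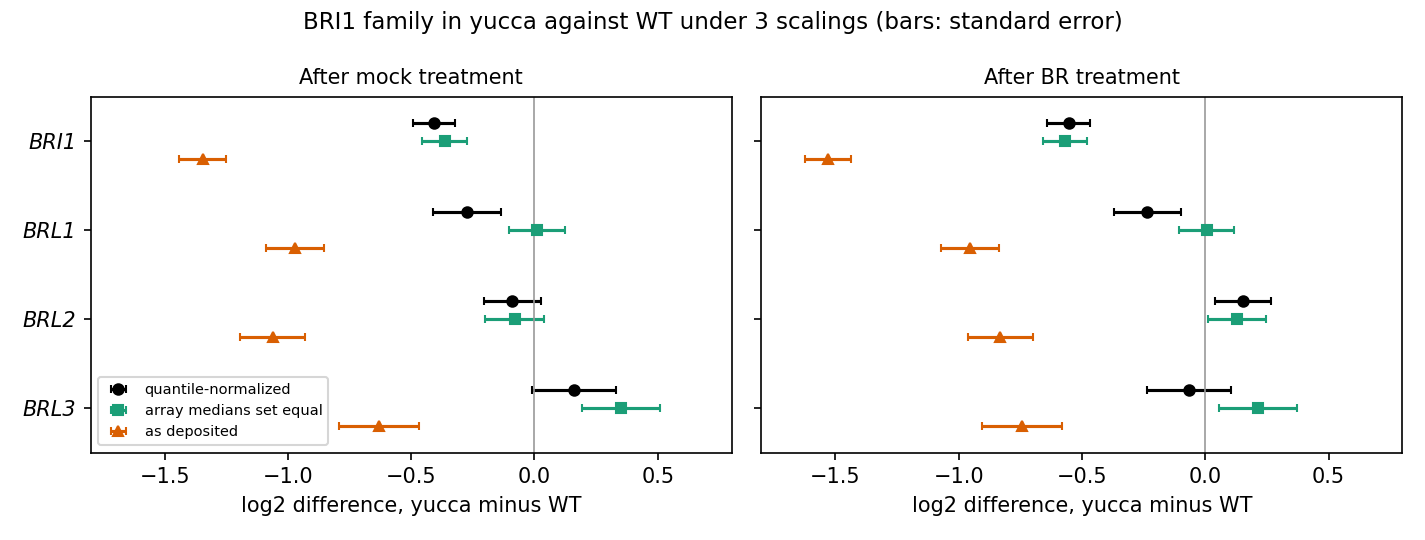
Log2 difference of *yucca* to WT for the 4 family members after mock (left) and BR treatment (right), from limma under 3 scalings of the arrays, with standard errors. The values as deposited lie farthest to the left for all 4 genes, and *BRI1* lies below 0 under each scaling.

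Read across the 4 groups on quantile-normalized values, *BRI1* was lowest in *yucca* BR (315 ± 4.02), followed by WT BR (463 ± 8.19), *yucca* mock (724 ± 26.1) and WT mock (960 ± 45.6; SD, n = 2 each), with no overlap between neighbours. *BRL3* ran in the order *yucca* BR (14.3 ± 1.94), WT BR (14.9 ± 0.696), WT mock (22.6 ± 5.09) and *yucca* mock (25.1 ± 3.82; SD, n = 2 each). Its 2 BR groups overlapped each other, as did its 2 mock groups. *BRL1* ran in the order *yucca* BR (9.55 ± 0.174), WT BR (11.3 ± 1.95), *yucca* mock (11.9 ± 1.55) and WT mock (14.4 ± 1.01; SD, n = 2 each), and its 2 middle groups overlapped. All 4 groups of *BRL2* lay between means of 157 and 181 and overlapped with at least 1 neighbour.

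The genes with the pattern most like that of a family member were sought among probe sets with 1 gene in the platform annotation, by Pearson r of quantile-normalized log2 values over the 8 arrays. These r values describe 4 groups of 2 arrays, and all genes share the same arrays. *BRI1* was closest to *SIR* (At5g04590), which encodes sulfite reductase (r = 0.99), At4g32290 (r = 0.98) and At5g15740 (r = 0.98). *SIR* had log2 fold changes of −0.63 for BR in *yucca* and −0.59 for BR in WT. *BRL3* was closest to At1g17230 (r = 0.97), with log2 fold changes of −1.38 for BR in *yucca* and −0.90 for BR in WT, and to At3g51370 (r = 0.96) and At2g38820 (r = 0.96). *BRL1* was closest to At3g05070 (r = 0.94), At4g01880 (r = 0.92) and At5g57340 (r = 0.92), and *BRL2* to At3g62790 (r = 0.93), At4g25210 (r = 0.89) and At5g41770 (r = 0.88). With r above 0.9, *BRI1* had 35 such genes among 1459 eligible, *BRL3* 22 of 2974, *BRL1* 6 of 4631 and *BRL2* 1 of 5824.

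Of 28 other components of BR signaling listed, 4 had a probe set named here: *BIR3*, *BZR1*, *BEH1* and *BEH2*. The co-receptor *BAK1*, the inhibitor *BKI1*, the kinase *BIN2* and the transcription factor *BES1* were not analysed here. In *yucca* 1 of the 4 rose and 2 fell after BR treatment, with a median log2 fold change of −0.27. Of all probe sets, 1.76% were called higher and 1.66% lower there. In WT 1 rose and 1 fell, with a median of −0.24, against 1.21% of all probe sets called higher and 0.945% lower. The median over all probe sets was close to 0 in both genotypes. *BEH2*, which encodes a relative of BZR1, was at 19.2 and 15.5 on the *yucca* BR arrays, against 126 and 115 on the *yucca* mock arrays. It was at 71.7 and 78.6 on the WT BR arrays, against 475 and 489 on the WT mock arrays, and fell with log2 fold changes of −2.80 in *yucca* and −2.68 in WT. The probe set of *BZR1* is of a type that can match transcripts of several genes, so its reading is uncertain. On the log2 scale it rose by 1.10 in *yucca* (adjusted p = 0.000259 from limma) and by 0.69 in WT (adjusted p = 0.00512). *BEH1*, another relative, fell by 0.98 in *yucca*, and its value of −0.67 in WT was not called (B = −1.16). The paper lists *BEH1* among the genes lowered by BL, so the WT result here differs from that listing. *BZR1*, *BEH1* and *BEH2* have their names here only through tables that the study chose on these arrays. The counts and medians of this list are thus no independent evidence of a direction. *BIR3*, which encodes a receptor-like kinase that binds BRI1 and its co-receptors and restrains them, was at 0.44 in *yucca* (adjusted p = 0.0322, B = −1.31) and 0.18 in WT (adjusted p = 0.569) and was not called. None of the 4 passed the test of the difference between genotypes.

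Among related receptor kinases of peptide and protein ligands, 2 of 4 had a probe set named here, *EMS1*, which acts in anther development, and *PSY1R*. Neither was called after BR treatment, with log2 fold changes of 0.40 (adjusted p = 0.0344 from limma, B = −1.40) for *EMS1* and −0.29 (adjusted p = 0.436) for *PSY1R* in *yucca*, and −0.12 and −0.08 in WT. *PSY1R*, a receptor for a growth-promoting sulfated peptide, was at 135 and 110 in *yucca* BR, against 244 and 238 in WT BR, on quantile-normalized values. It was thus lower in *yucca* after BR treatment by a log2 difference of −0.99 (adjusted p = 0.000953 from limma, B = 1.11). In that comparison 8.6% of all probe sets were called lower. Whether the call of *PSY1R* holds under the alternatives was not tested. Its difference of −0.79 after mock treatment was not called (B = −0.712).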

How the data were processed

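The authors normalized the arrays with rma of the affy package, which corrects background, equalizes distributions and summarizes the probes of a set, and deposited 1 linear intensity per probe set and array (versions are not given in the sources used here). Of 22810 probe sets, 64 controls were left out. The remaining 22746 entered, as log2 intensities, a limma 3.58.1 fit (R 4.3.3) of 4 group means over 8 arrays with 4 residual degrees of freedom, empirical Bayes moderation (proportion 0.01) and Benjamini-Hochberg adjustment over all probe sets of a comparison. Responses to BR used deposited values. Comparisons of *yucca* with WT used quantile-normalized values. The platform annotation assigns 13436 probe sets to a single gene matched in RefSeq, and *BRL1* is among them. The other 3 members are named through the paper's tables, *BRL2* and *BRL3* only through those of genes changed by auxin treatment. Members, lists and comparisons were chosen with earlier results of these data known. Genes named are the 4 members, listed BR signaling genes, up to 4 others called per comparison, and up to 2 of other lists, plus the 3 most similar patterns per member among probe sets with a mean above the median and an SD at least 0.5 times that of the member. The fit was tested on simulated data. Alternatives were no B criterion, a stricter adjusted p (0.05), a replicate block, an intensity trend, 16 added to each intensity, a filter at the 25th percentile, a fit of 2 groups, other scalings and leaving out each array. Precision is limited by having 2 arrays per group.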

Additional observations from a re-analysis of the deposited data

How the results depend on the processing

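Of 319 alternative values for the 4 genes in 5 comparisons, 287 kept their direction and their side of the criteria. With no B criterion, *BRL3* was called in *yucca* (−0.74) and in WT (−0.63), and *BRI1* in *yucca* against WT after mock treatment (−0.41). *BRI1* was called in that comparison also with an intensity trend (−0.41) and with 16 added (−0.40). Adding 16 turned the difference of the *BRL3* response to 0.022. On deposited values, where the whole *yucca* arrays lie lower, differences after mock treatment were −1.35 for *BRI1*, −0.97 for *BRL1*, −1.06 for *BRL2* and −0.63 for *BRL3*, and after BR treatment −1.53, −0.96, −0.83 and −0.74 in that order. With array medians set equal, *BRL1* turned to 0.0099 after mock and 0.0051 after BR treatment, and *BRL3* to 0.22 after BR treatment. In a fit of only 2 groups, *BRI1* after BR treatment (−0.55) lost its call. No value could be had for *BRL1* under the filter on dim probe sets, which removes it.

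Leaving out each array gave −0.87 to −0.39 for *BRL3* and −0.14 to 0.049 for *BRL2* (BR in WT), −0.86 to −0.63 for *BRL3* (BR in *yucca*), −0.36 to 0.12 for *BRL3* and −0.12 to 0.15 for *BRL1* (difference of responses), −0.071 to 0.39 for *BRL3* (*yucca* against WT after mock treatment), and −0.57 to −0.54 for *BRI1* and −0.21 to 0.071 for *BRL3* (after BR treatment). The cause of these changes was not tested.

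Deviations of same-numbered arrays correlated at 0.407 between the *yucca* groups, 0.225 between the WT groups and −0.124 to −0.0716 across genotypes. The main tests therefore did not use the number to pair samples across genotypes. Both correlations within a genotype were positive. Pairing of same-numbered mock and BR arrays within a genotype was not tested, and the main tests of the BR response did not use it. The replicate block, tried as an alternative, did join same-numbered arrays across the genotypes, where these correlations were negative. Its results therefore cannot decide how pairing within a genotype would change the calls. Under both criteria, the replicate block changed no call of a member in the 5 planned comparisons (*BRI1*, adjusted p = 0.000402 in *yucca* and 0.00175 in WT from limma). It called 23 probe sets for the difference of responses, against 6 without it. Crossing the *yucca* numbers, tried after the data were seen, called 4130 between genotypes after BR treatment, against 3833.

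Counts over all probe sets moved by more than 1.5 times in these cases. With no B criterion they were 2094 against 778 (BR in *yucca*), 965 against 490 (BR in WT), 12173 against 3949 (genotypes after mock treatment), 12116 against 3833 (after BR treatment) and 2567 against 1004 (averaged response). On deposited values, 15621 and 15556 differed between genotypes after mock and BR treatment. A fit of 2 groups called 412 for BR in *yucca*, and an intensity trend 47 for the difference of responses. Leaving out 1 array gave 238 to 555 for BR in WT, 0 to 146 for the difference of responses, 2195 to 3779 between genotypes after mock treatment, 2095 to 4333 after BR treatment and 665 to 958 for the averaged response.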
